A study of Rattus norvegicus with 4 samples.

Results

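The genes by which glucose enters a cell and is phosphorylated were compared between INS-1 cells grown as a monolayer (2D) and cells bioprinted in a hydrogel (3D). They are 9 listed genes: the glucose transporters Slc2a1, Slc2a2 and Slc2a3, the hexokinases Hk1, Hk2 and Hk3, the regulator Gckr, and the glucose-6-phosphatases G6pc2 and G6pc3. They were chosen by function, with earlier results of these data known. Of the 9, 8 were matched by symbol among the 23360 genes measured. G6pc2 was not analysed here. The line used is a clone of the rat insulinoma line INS-1 that secretes insulin and carries an added human insulin gene. The 3D group was printed in GelXA LAMININK 411, a gelatin-based gel with laminin, and the 2D group was seeded for standard culture, both in the same medium. RNA was taken after 5 days at passage 3 from 2 cultures of each group, which the submitters call biological replicates. Levels are given as TPM, a relative abundance in which each value is corrected for transcript length and each of the 4 samples sums to 1000000. The depth of each library is lost in this unit, so their counting error cannot be computed and only the spread between cultures is given.

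In islet beta cells, glucose crosses the membrane through carriers of the Slc2a family. The carrier encoded by Slc2a2 (GLUT2) has low affinity and high capacity, so that uptake follows the glucose outside, whereas those encoded by Slc2a1 (GLUT1) and Slc2a3 (GLUT3) have high affinity and work close to saturation. Hexokinases then trap the sugar as its phosphate, the high-affinity forms Hk1, Hk2 and Hk3 being kept low in normal beta cells, and glucose-6-phosphatases of the endoplasmic reticulum take the phosphate off again.

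Of the transporters, Slc2a2 was by far the most abundant and was higher in 3D culture, whereas Slc2a1 was far lower in level and Slc2a3 was listed at 0. Slc2a2 stood at 491 and 454 TPM in the 2D cultures and at 626 and 654 TPM in the 3D cultures. Both 3D cultures lay above both 2D cultures, and the distance between the groups exceeded the distance within either. The group means were 473 ± 26.6 TPM in 2D and 640 ± 19.7 TPM in 3D (SD, n = 2), a ratio of 1.35. On the log2(TPM + 1) scale, after scaling between samples, the rise was 0.39 (SE 0.056, 95% interval 0.25 to 0.53), with an adjusted p of 0.0075 in limma over the 11960 genes whose TPM averaged 1 or more. Because of the added 1, this scale makes changes of scarce genes look smaller, which hardly touches a gene at this level. An exact permutation test over 2 cultures a group cannot go below p = 0.33, so the call depends on the variance that limma borrows from the other genes. The call was lost when either 3D culture was left out: the adjusted p from limma was 0.0759 without replicate 1 and 0.0654 without replicate 2, with log2 fold changes of 0.42 and 0.38. In RNA from whole cultures, fewer cells of a type and less RNA per cell cannot be told apart.

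Ordered by level within each sample, Slc2a2 ranked 255 and 284 among all genes in the 2D cultures, and 182 and 173 in the 3D cultures. It thus belonged to the most abundant messages of these cells in both conditions, with the higher places in 3D. Among the genes tested, 14.3% had a higher log2 fold change than Slc2a2, and Slc2a2 ranked 951 by p. Among the 220 tested genes that were at least as abundant, 9 had a higher log2 fold change.

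Slc2a1 encodes the high-affinity carrier that most cell types and many cultured lines use. Its level was 15.2 and 14.6 TPM in the 2D cultures and 13.5 and 13.3 TPM in the 3D cultures. Here the 3D cultures were the lower ones and the groups did not overlap, although the difference was small. The means were 14.9 ± 0.424 TPM in 2D and 13.4 ± 0.147 TPM in 3D (SD, n = 2), and the log2 fold change was −0.18 (SE 0.064, 95% interval −0.34 to −0.024). Its adjusted p in limma was 0.0696, so the difference did not pass the threshold of 0.05. Of the genes tested, 56.8% had a larger absolute log2 fold change. Slc2a3, the high-affinity carrier best known from neurons, has 1 transcript in the reference used and was listed at 0 in all 4 cultures. A value of 0 need not mean absence in these data: Actg1, a cytoplasmic actin gene in general use, was also listed at 0 in all 4 cultures, while its relative Actb stood between 1136 and 1250 TPM. These actin genes were looked up after the values of the hexokinases had been seen.

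**Figure D1:**
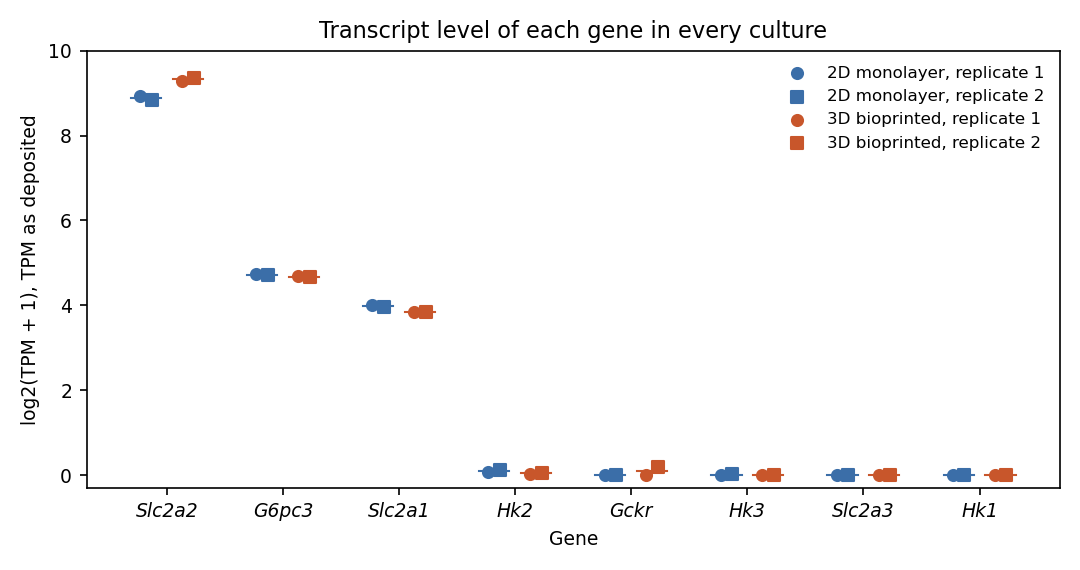
Level of each of the 8 matched genes in every culture, as log2(TPM + 1) of the deposited values, with 2D monolayer in blue, 3D bioprinted in orange, circles for replicate 1, squares for replicate 2 and short lines for group means (n = 2). Slc2a2 lies far above the other genes and higher in both 3D cultures, G6pc3 and Slc2a1 lie close together with small shifts, and the other 5 genes lie at or near 0.

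The plot of each gene by culture sets these levels side by side. The 4 points of Slc2a2 fall into separate pairs by culture type, those of Slc2a1 and G6pc3 nearly coincide, and the hexokinases and the regulator sit at the bottom of the axis. Of the 8 matched genes, 3 had a mean TPM high enough to be tested, and 5 did not. At an adjusted p below 0.05 in limma, 1 of the 3 was called, beside 38.0% of all genes tested (4541 of 11960). The count over all genes was 136 without 3D replicate 1 and 1037 without 3D replicate 2. The called gene, Slc2a2, was higher in 3D, as were 18.5% of all genes. None of the 3 was called lower, as were 19.5% of all genes, although the unadjusted p of Slc2a1 in limma was 0.0310. The share called among these genes is thus close to the background and is no result about them as a group. The groups did not overlap in deposited TPM for 3 of the 3, beside 74.2% of all genes tested.

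The reference holds a pair of transcripts for Slc2a2, and the annotation used here does not say how their proteins differ. The more abundant one, ENSRNOT00000015866.6, stood at 427 and 443 TPM in the 2D cultures and at 537 and 572 TPM in the 3D cultures. It carried most of the gene's level in every culture and was higher in both 3D cultures. Its log2 fold change was 0.31 (SE 0.067), with an adjusted p of 0.0406 in limma over 15020 transcripts. With a block for the replicate number it was not called (adjusted p 0.0530 in limma). The other, ENSRNOT00000091221.1, stood at 64.2 and 11.1 TPM in 2D and at 89.0 and 81.7 TPM in 3D. Its groups did not overlap either, but the 2D cultures differed widely from each other, and it was not called (log2 fold change 1.58, SE 0.79, adjusted p 0.201 in limma). Its share of Slc2a2 was 13.1% and 2.44% in the 2D cultures and 14.2% and 12.5% in the 3D cultures. Monolayer replicate 1 thus resembled the 3D cultures in this share, and monolayer replicate 2 stood apart. Of the 12 transcripts of the matched genes, 4 were tested and 1 was called, beside 23.1% of all transcripts tested, and 5 were listed at 0 in every culture. That single call was lost when any 1 culture was left out, with an adjusted p in limma of 0.0771 without 2D replicate 1, 0.0688 without 2D replicate 2, 0.189 without 3D replicate 1 and 0.202 without 3D replicate 2. Its log2 fold change was then 0.24, 0.37, 0.34 and 0.27. In the last 3 of these fits limma called 0 of all transcripts, while 5226, 3584 and 4021 had an unadjusted p under 0.05. In the fit without 2D replicate 1 it called 2888 of 15080 transcripts. The fold change of ENSRNOT00000091221.1 hung on which 2D culture was kept: its log2 value was 2.76 without 2D replicate 1 and 0.40 without 2D replicate 2. The first of these was called (adjusted p 0.0357 in limma), but such a fit takes its spread from the 3D pair and leaves out the wide 2D spread, so this call is no support for a change. How Salmon divides reads between transcripts of 1 gene is an estimate, so the split is less certain than the sum. For Slc2a1, ENSRNOT00000064452.2 carried the whole level and its other transcript was listed at 0.

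The balance of the low-affinity carrier over the high-affinity ones was taken as the ratio of Slc2a2 to the sum of Slc2a1 and Slc2a3 within each culture, which needs no scaling between samples. The ratio was 32.4 and 31.1 in the 2D cultures and 46.5 and 49.3 in the 3D cultures. It was higher in both 3D cultures, and the groups were far apart for the spread within them. Since Slc2a3 was listed at 0, the ratio is in effect that of Slc2a2 to Slc2a1. On the log2 scale the means were 4.99 ± 0.040 in 2D and 5.58 ± 0.060 in 3D (SD, n = 2), a difference of 0.59. The exact two-sided permutation test over the 4 cultures gave p = 0.333, the smallest value that its 6 arrangements allow. Slc2a2 moved more than Slc2a1 on the log2 scale, so the larger part of this difference comes from Slc2a2.

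**Figure D2:**
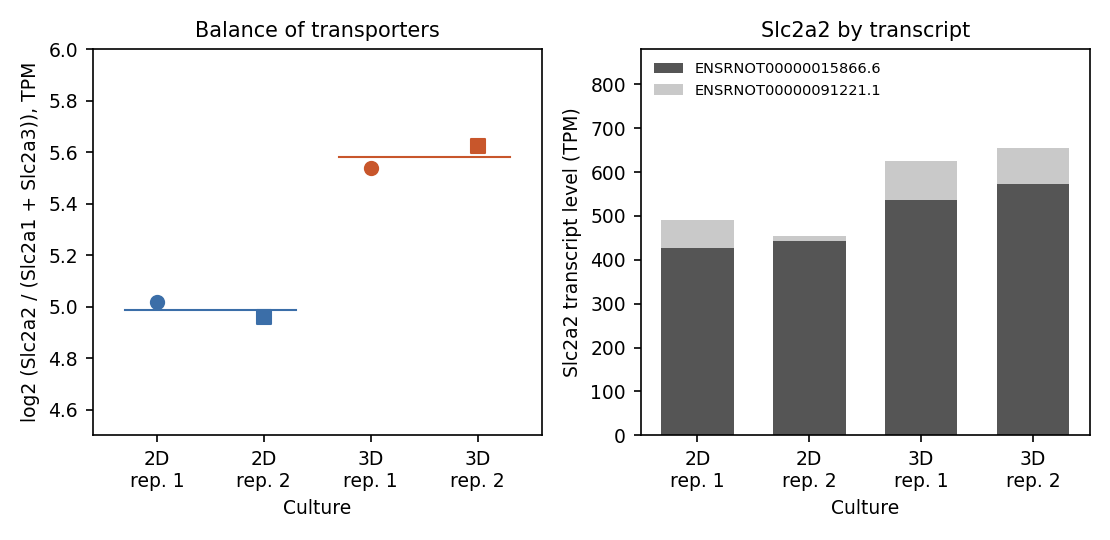
Left, log2 ratio of Slc2a2 to Slc2a1 plus Slc2a3 in TPM for each culture (2D in blue, 3D in orange, lines for group means, n = 2). The vertical axis does not start at 0, and the 3D cultures lie 0.59 above the 2D cultures on average. Right, level of Slc2a2 in TPM for each culture as stacked bars from 0, with ENSRNOT00000015866.6 in dark grey and ENSRNOT00000091221.1 in light grey, the latter being smallest in 2D replicate 2.

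The plot of the transporter balance shows the ratio beside the transcripts behind its numerator. The separation of the groups on the left is several times the distance between replicates, and on the right the dark part of the bars alone already gives the order of the cultures by group. Across all 12 genes of the Slc2a family in the reference, Slc2a2 supplied 90.6% and 90.6% of the summed TPM in the 2D cultures and 93.3% and 93.6% in the 3D cultures. The share of Slc2a1 was 2.80% and 2.91% in 2D and 2.01% and 1.90% in 3D. Without Slc2a2, the other genes of the family summed to 51.1 and 47.3 TPM in 2D and to 45.1 and 44.8 TPM in 3D. By these listed values, the carriers other than Slc2a2 made up a small and somewhat lower pool in the 3D cultures. Of the 12 genes, 3 were listed at 0 in every culture, to which the caution on Actg1 applies. In order of mean level Slc2a2 was followed by Slc2a1 (mean over the 4 cultures 14.1 TPM), Slc2a8 (12.8 TPM) and Slc2a6 (10.7 TPM). Slc2a1 stood above Slc2a8 within each of the 4 cultures, although in 2D the values of Slc2a8, 14.8 and 13.2 TPM, overlapped with those of Slc2a1.

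The promoter windows of the pair of transporters that set this balance are shown so that the sequence before each gene can be read beside its level. They come from RefSeq, build GRCr8, whose tables held a window for 8 of the 9 genes, and each is 300 bases long across the annotated start. The Slc2a1 window lies on the + strand at chr5:138002272-138002571 and the Slc2a2 window on the + strand at chr2:113540120-113540419. Capitals mark matches on either strand to the TATA box (letters TATAAA), the GC box (letters GGGCGG), the CCAAT box (as its name is spelled) or the E-box (letters CACGTG).
Slc2a1: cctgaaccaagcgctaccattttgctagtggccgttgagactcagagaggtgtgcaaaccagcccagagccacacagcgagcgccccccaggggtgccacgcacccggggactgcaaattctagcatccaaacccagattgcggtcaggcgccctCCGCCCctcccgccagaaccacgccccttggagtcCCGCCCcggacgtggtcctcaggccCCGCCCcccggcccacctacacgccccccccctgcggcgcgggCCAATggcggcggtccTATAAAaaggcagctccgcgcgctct
Slc2a2: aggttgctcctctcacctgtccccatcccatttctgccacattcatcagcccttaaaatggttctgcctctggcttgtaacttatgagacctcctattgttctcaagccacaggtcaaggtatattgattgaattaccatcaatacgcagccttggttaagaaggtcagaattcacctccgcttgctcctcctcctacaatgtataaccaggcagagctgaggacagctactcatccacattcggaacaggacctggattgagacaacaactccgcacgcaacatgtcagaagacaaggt
The Slc2a1 window had a GC content of 68.3% and held 1 TATA box, 3 GC boxes and 1 CCAAT box, none overlapping another, and no E-box. The Slc2a2 window had a GC content of 47.7% and held none of the 4 motifs. Among 33465 windows of this length, 14.2% held the TATA box, 33.1% the GC box, 37.5% the CCAAT box and 6.4% the E-box. A match is a description of the letters alone, and its absence says only that these letters are not in this window.

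The high-affinity hexokinases were listed at or near 0 in every culture. Hk2, the insulin-responsive form of muscle and fat, stood at 0.0483 and 0.0790 TPM in the 2D cultures and at 0.0248 and 0.0355 TPM in the 3D cultures. The 3D values were the lower ones without overlap, but all 4 are far below 1 TPM. Hk3, a form found mainly in blood cells, was listed at 0.0123 TPM in 2D replicate 2 and at 0 in the other 3 cultures. Hk1, the form that most tissues use, has 1 transcript in the reference used and was listed at 0 in all 4 cultures, to which the caution on Actg1 applies. The 3 genes together summed to 0.0483 and 0.0913 TPM in 2D and to 0.0248 and 0.0355 TPM in 3D. No fold change is given for these genes, and a ratio of Hk2 to Hk1 could not be formed against values of 0. In a fit over all 16749 genes above 0 in any culture, which lets in Hk2, Hk3 and Gckr, none of the 3 was called in limma (adjusted p 0.383, 0.852 and 0.399), and the unadjusted p of each was above 0.05 too. That fit called 3588 of all its genes.

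Gckr, an inhibitory regulator of glucose phosphorylation best known from the liver, was listed at 0 in both 2D cultures and in 3D replicate 1, and at 0.145 TPM in 3D replicate 2. The single value above 0 sets no difference between the groups.

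Of the glucose-6-phosphatases, G6pc3 is the form that nearly all tissues carry. It stood at 25.8 and 25.1 TPM in the 2D cultures and at 24.9 and 24.3 TPM in the 3D cultures. The 3D values were the lower ones, by a margin smaller than the distance between replicates. The means were 25.4 ± 0.495 TPM in 2D and 24.6 ± 0.421 TPM in 3D (SD, n = 2), the log2 fold change was −0.086 (SE 0.060, 95% interval −0.24 to 0.063), and the adjusted p in limma was 0.289. Without scaling the log2 fold change was −0.045, and without 3D replicate 2 it was −0.057. The interval holds 0, and it leaves room for a change of the size seen for Slc2a1 but not for a rise of the size seen for Slc2a2. In order of level, G6pc3 stood above Slc2a1 in all 4 cultures and below Slc2a2 in all 4, so the order of the 3 tested genes was the same in both culture types. The balance of G6pc2 against the hexokinases was not analysed here.

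**Figure D3:**
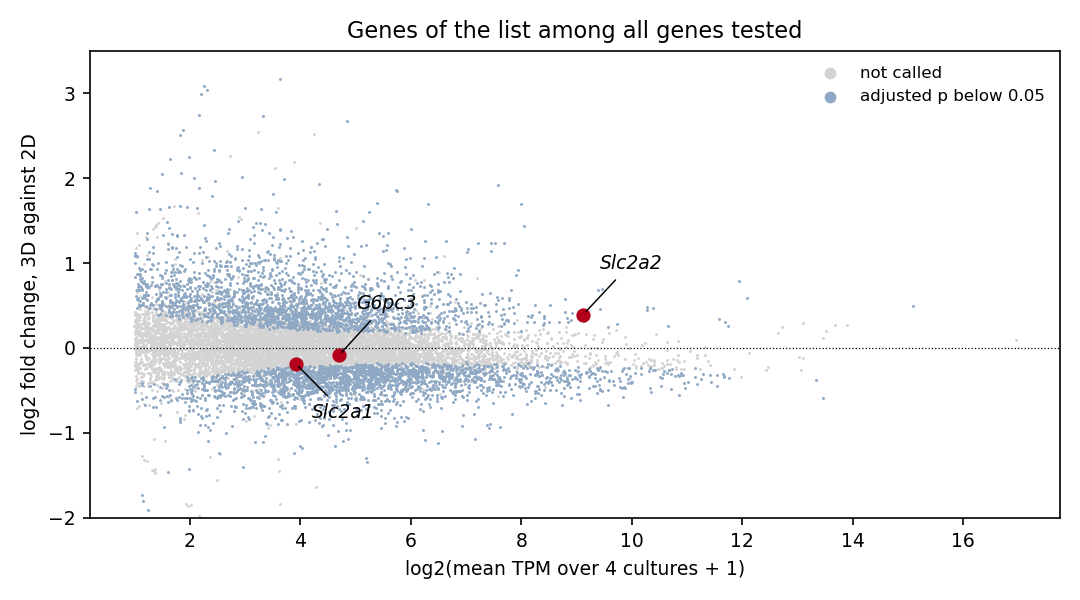
Log2 fold change, 3D against 2D, on scaled TPM + 1, against log2 of the mean TPM over the 4 cultures + 1, for the 11960 genes tested. Genes with an adjusted p below 0.05 in limma are blue and the others grey; 7 genes lie outside the vertical axis. The 3 tested genes are red: Slc2a2 lies at the right among the higher called genes, Slc2a1 and G6pc3 lie just below 0.

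In the plot of all genes, Slc2a2 lies near the upper border of the genes of its level. Slc2a1 sits at the edge of the grey band and G6pc3 inside it. The median log2 fold change over all genes tested was −0.0031, which the scaling sets near 0; without scaling it was 0.036.

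The genes whose profile over the 4 cultures was nearest to that of Slc2a2, by the root mean square difference of mean-centred log2(TPM + 1), were Nbeal2 (0.0036), Arfgef2 (0.0103) and Sema6a (0.0120), of 11957 genes compared. Nbeal2, for one, stood at 5.45 and 4.95 TPM in 2D and at 7.17 and 7.59 TPM in 3D, the order of cultures seen for Slc2a2. Nearest to Hk2, the hexokinase with the highest listed TPM, were Pex26 (0.0034), Cnp (0.0055) and Mfsd5 (0.0057). At its level, the profile of Hk2 spans only 0.074 on this scale, so these are genes that hardly varied. With 4 cultures, such likeness is a description.

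Beside Slc2a2 and Slc2a1 stand the other sugar transporters. Of the 16 listed, 7 were tested and 3 were called, 1 higher and 2 lower (42.9%, median log2 fold change 0.022), beside 38.0% of all genes tested, of which about as many rose as fell. Slc2a4, the insulin-responsive carrier of muscle and fat, stood at 3.65 and 3.62 TPM in 2D and at 5.91 and 6.20 TPM in 3D, a rise of 0.57 on the log2 scale (SE 0.086, adjusted p 0.0082 in limma). Slc2a6 and Slc2a8, which act on intracellular membranes, fell by 0.50 (adjusted p 0.0105) and by 0.30 (adjusted p 0.0235 in limma). Slc2a13, a myo-inositol carrier, stood at 1.31 and 1.12 TPM in 2D and at 1.86 and 2.03 TPM in 3D and was not called (adjusted p 0.0530 in limma). It was called in 3 other fits: without the filter (adjusted p 0.0427), without trend (0.0202) and with robust empirical Bayes (0.0359 in limma). The fit without the filter also called Slc2a9, a urate carrier otherwise too low to be tested (means 0.691 TPM in 2D and 1.11 TPM in 3D, adjusted p 0.0418 in limma, log2 fold change 0.30). The log2 fold change of Slc2a13 was 0.60 where 0.1 was added in place of 1, without a call (adjusted p 0.0629). Without scaling between samples, Slc2a8 kept its direction and lost its call (adjusted p 0.0659 in limma), as it did without 2D replicate 1 (adjusted p 0.0537). Among the carriers beside Slc2a2, Slc2a6 and Slc2a8 had the largest falls in mean TPM.

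Next to the hexokinases and phosphatases, 7 further genes that handle glucose or its phosphate were listed, of which 4 were tested and 1 was called (25.0%, median log2 fold change −0.047), beside 38.0% of all genes tested. Adpgk, an ADP-dependent glucose kinase, stood at 7.33 and 7.52 TPM in 2D and at 6.45 and 6.14 TPM in 3D. Its lower values in 3D did not pass the threshold (log2 fold change −0.25, adjusted p 0.0658 in limma). Slc37a3, of the sugar-phosphate exchanger family, rose by 0.30 (SE 0.063, adjusted p 0.0187 in limma). Slc37a4, which brings the phosphatases their substrate across the membrane of the endoplasmic reticulum, had a log2 fold change of −0.0028 (SE 0.11, adjusted p 0.987 in limma), which ran from −0.16 to 0.14 as single cultures were left out. Like G6pc3, it gave no call, and its level of 27.3 and 32.2 TPM in 2D and 29.1 and 32.0 TPM in 3D overlapped between groups. Slc37a1 gave none either (log2 fold change −0.090, adjusted p 0.416 in limma; −0.17 to −0.0093 with single cultures left out). G6pc, the phosphatase of liver, was listed at 0 and 0.0157 TPM in 2D and at 0.0610 and 0 TPM in 3D and was too low to be tested. Hkdc1 was not analysed here.

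**Figure D4:**
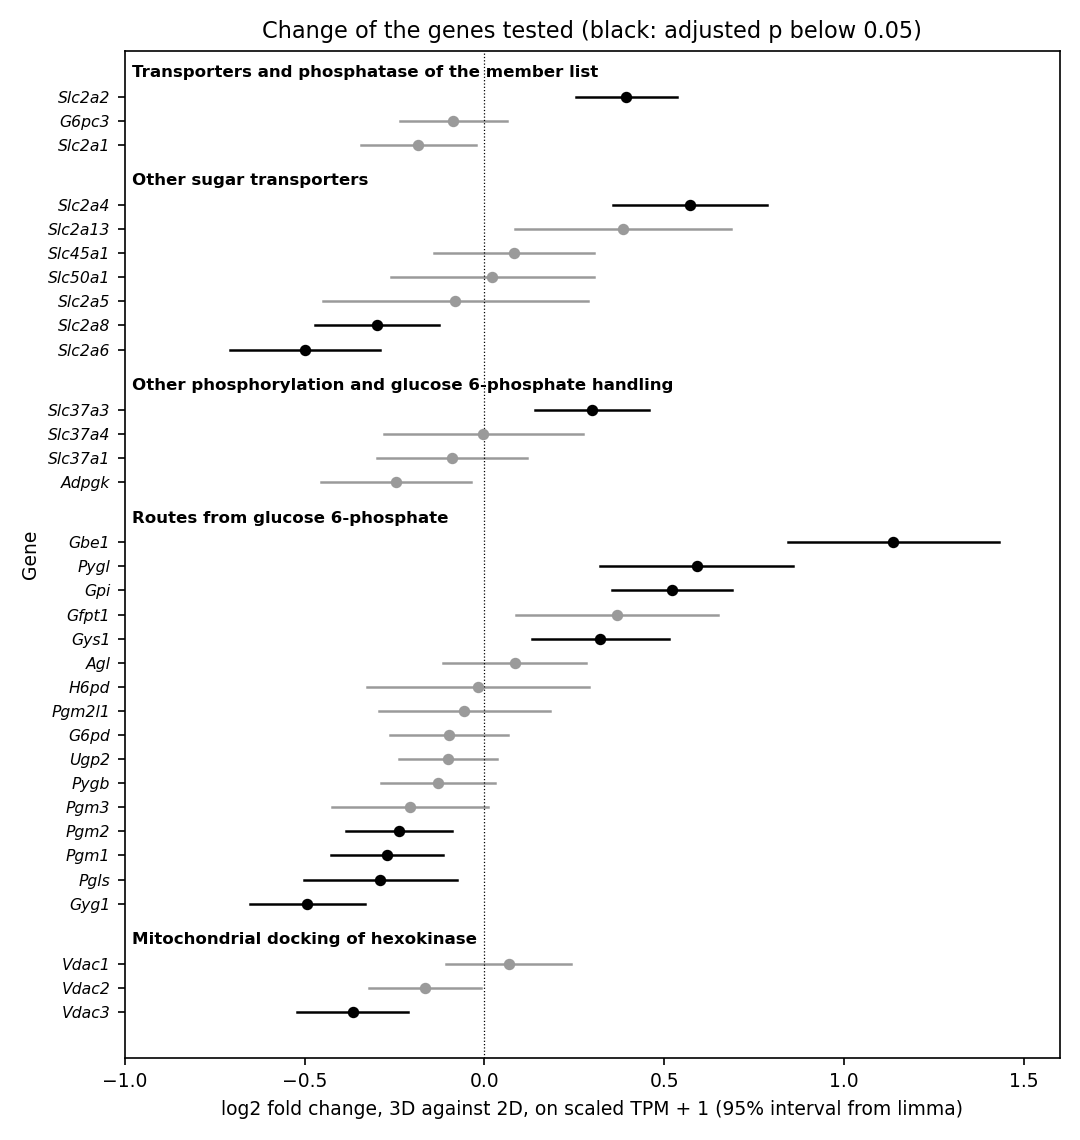
Log2 fold change, 3D against 2D, on scaled TPM + 1, with 95% intervals from limma (n = 2 a group), for the 3 tested genes of glucose entry and phosphorylation and for the 30 tested genes of the 4 lists around them. Black marks an adjusted p below 0.05. Slc2a2 lies at 0.39 with its interval above 0, the interval of Slc2a1 ends just below 0 without a call, and that of G6pc3 crosses 0.

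The plot of fold changes places these genes beside the routes that glucose phosphate can take. Of 17 listed genes of these routes, 16 were tested and 8 were called, 4 higher and 4 lower (50%, median log2 fold change −0.077). Of all genes tested, 38.0% were called, 18.5% higher and 19.5% lower. Gpi, the isomerase that leads into glycolysis, stood at 199 and 195 TPM in 2D and at 303 and 280 TPM in 3D, a rise of 0.52 (adjusted p 0.0060 in limma). Gbe1, which branches glycogen, rose by 1.14 (SE 0.12, adjusted p 0.0044 in limma), and Pygl, which breaks it down, by 0.59 (adjusted p 0.0127). Gyg1, the primer of glycogen, fell by 0.49 (adjusted p 0.0062 in limma), and Gfpt1, the entry to the hexosamine route, was not called (log2 fold change 0.37, adjusted p 0.0505). Gfpt1 was called by limma with median-ratio scaling (adjusted p 0.0483), a mean TPM of 5 or more (0.0365) and robust empirical Bayes (0.0446). A block for the replicate number called it too (adjusted p 0.0194 in limma). With spread from the 3D pair alone, its log2 fold change was 0.53 without 2D replicate 1 and 0.20 without 2D replicate 2. The other genes called were Gys1 (higher) and Pgm1, Pgm2 and Pgls (lower), named after their values were seen. Pgm1, Pgm2 and Pgls lost their calls, not their direction, without scaling between samples (adjusted p 0.0595, 0.0555 and 0.0623 in limma). Without 2D replicate 2, Gys1, Pgm1, Pgm2 and Pgls all lost theirs (adjusted p 0.0709, 0.0526, 0.0648 and 0.111 in limma). Pgm1 lost it without 2D replicate 1 (adjusted p 0.0528), Gys1 and Pgls without the filter (0.0536 and 0.0866), and Pgls without trend (0.0562 in limma).

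The last list holds the Vdac channels, to which Hk1 and Hk2 bind on mitochondria. Of the 3 tested, 1 was called (33.3%, median log2 fold change −0.16), beside 38.0% of all genes tested. Vdac3 stood at 275 and 276 TPM in 2D and at 225 and 215 TPM in 3D, a fall with an adjusted p of 0.0106 in limma. Vdac1 and Vdac2 were not called (log2 fold changes 0.068 and −0.16, adjusted p 0.465 and 0.0863 in limma), but Vdac2 was without 2D replicate 1, with spread from the 3D pair alone (adjusted p 0.0358). With single cultures left out, the log2 fold change of Vdac1 ran from 0.0021 to 0.13, and that of Vdac2 was −0.11 without 2D replicate 2. Over all lists, 13 of 30 tested genes were called, 6 higher and 7 lower, with a median log2 fold change of −0.068. This is 43.3% of them, beside the 38.0% of all genes tested. Like the calls over all genes, most list calls were lost without a 3D culture. Without 3D replicate 1, limma called none of the list, beside 1.14% of all genes tested. Without 3D replicate 2 it called 3, Gbe1, Gpi and Gyg1, beside 8.71% of all genes tested.

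The label of the cells held in the data. All 8 beta cell markers were found and none was at 0. They summed to 139200 and 151082 TPM in 2D and to 149599 and 161177 TPM in 3D, most of it Ins1. Of these markers, 1 was called, Ins2, lower in 3D (log2 fold change −0.58, adjusted p 0.0095 in limma). Not called were Ins1, Iapp, Nkx6-1 and Mafa, with log2 fold changes of 0.099, 0.20, 0.039 and 0.16. Slc30a8, Pcsk1 and Pdx1 were not called either, at −0.14, −0.36 and −0.23 (adjusted p 0.276, 0.0881 and 0.0520 in limma). Among the markers of other cell types, Gcg, the glucagon gene of alpha cells, was higher in 3D, as was Slc2a2. In 2D, though, Slc2a2 was the higher in replicate 1 and Gcg in replicate 2. Gcg stood at 41.9 and 73.8 TPM in 2D and at 124 and 155 TPM in 3D (log2 fold change 1.26, SE 0.28, adjusted p 0.0217 in limma). Its log2 fold change was 0.82 without 2D replicate 1 and 1.70 without 2D replicate 2, fits in which the lone 2D culture is taken to vary as the 3D pair does. Its call was lost in limma without 3D replicate 1 (adjusted p 0.0960) and without 3D replicate 2 (adjusted p 0.117), as was that of Ins2 (adjusted p 0.107 and 0.0737). Without the filter both calls were lost (adjusted p 0.0635 for Gcg and 0.0891 for Ins2), and that of Gcg also with robust empirical Bayes (0.128 in limma). Of the 2 alpha cell markers reported, Irx2 was listed at 0 in all 4 cultures, so that Gcg made up their whole sum: 41.9 and 73.8 TPM in 2D, 124 and 155 TPM in 3D. Their part in the rise of Slc2a2 was not tested. Markers of delta, PP, duct, endothelial, fibroblast, leukocyte and liver cells summed to at most 2.35 TPM per type in any culture, with Hhex, Cdh5 and Ptprc listed at 0. Those of acinar cells summed to 6.50 and 7.49 TPM in 2D and to 5.83 and 5.79 TPM in 3D, nearly all of it Ctrb1, with Cpa1 and Cela1 listed at 0. Pecam1 and Col1a2 were not analysed here.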

How the data were processed

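Stranded mRNA libraries of 4 cultures were sequenced as single-end reads. According to the methods and the submitters' processing notes, the authors checked reads with FastQC 0.11.8 and quantified transcripts with Salmon 1.2 (rn4 plus the human insulin gene), and they deposited TPM. The deposited TPM are written with decimal commas. For the check of units they were entered as other, and the limits of TPM (none below 0, a sum of 1000000 per sample) were tested on the values. TPM keep no depth, so precision is that of 2 cultures a group. No value above 0 was identical between samples.

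TPM were summed per symbol and scaled by trimmed means of M values without weights, leaving out 30% of M values and 5% of A values per end (factors 0.960 to 1.02). In R 4.3.3, limma 3.58.1 with an empirical Bayes trend tested log2(TPM + 1) of the 11960 genes whose TPM averaged 1 or more, with Benjamini-Hochberg adjustment. Transcripts were tested likewise. Ratios were compared by an exact two-sided permutation test. Figures were drawn with Python 3.11.15 and matplotlib 3.10.9. The steps were tested on simulated data.

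The genes and lists were chosen with earlier results of these data known. Named were all matched genes, from each list the 4 tested genes with the smallest p and those with a mean TPM above 50, the 3 genes nearest in profile to the transporter and the hexokinase with the highest listed TPM, and the cell type markers, of which 1 is not reported here. Slc2a9 and G6pc were named in addition, after their values were seen. Promoter windows are from RefSeq (GRCr8), whose build differs from that of the TPM; they were used for sequence alone. The motifs are common promoter elements. Windows are shown for the tested transporters only, as G6pc3 has no part in the transporter balance.

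Alternatives were the scaling, filter, pseudocount, threshold, empirical Bayes options, replicate block, most abundant transcript and each culture left out. The count-based test of the methods needs counts and was not repeated. A ratio of Hk2 to Hk1 could not be formed, since Hk1 was listed at 0, and that of G6pc2 to the hexokinases was not analysed here.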

Additional observations from a re-analysis of the deposited data

How the results depend on the processing

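The direction of Slc2a2, Slc2a1 and G6pc3 held under each of the 7 alternatives that can move a fold change; the other 5, of filter, block and empirical Bayes, cannot. Of all 12, Slc2a2 was called in 10 (adjusted p in limma 0.0049 to 0.0251) and not in 2 (0.0654 and 0.0759); when single cultures were left out its log2 fold change ranged from 0.37 to 0.42. Neither Slc2a1 (adjusted p 0.0658 to 0.295) nor G6pc3 (0.251 to 0.672) was called under any. When single cultures were left out, the genes called ranged from 136 (without 3D replicate 1) to 4515, those of the lists from 0 to 13, the listed genes of glucose entry and phosphorylation from 0 to 1 and their transcripts from 0 to 1. Over all transcripts, limma then called 2888 without 2D replicate 1 and 0 in the other 3 fits, where 3584 to 5226 had an unadjusted p under 0.05. Leaving out a culture assumes that the lone one left in its group varies like those of the other group. At an adjusted p below 0.01, 1418 genes and 4 list genes were called, and Slc2a2 was among them. The log2 ratio of the transporters differed by 0.50 to 0.64 over the 6 alternatives that can move it.

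Across genes, the deviations of cultures that share a replicate number correlated at −0.006. This value shows no effect shared by number over all genes, and cannot tell whether the cultures were paired. With the replicate block, 4814 genes, 14 list genes and Slc2a2 (adjusted p 0.0084 in limma) were called, and 0 transcripts of the listed genes (ENSRNOT00000015866.6 at an adjusted p of 0.0530), beside 2787 of all 15020 transcripts. With the block Gfpt1 was called (adjusted p 0.0194), and no call of Slc2a1, Slc2a2 or G6pc3 changed. Pairing by number leaves the difference of the transporter ratio at 0.59 by arithmetic.

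Without scaling, 4070 genes were called, 2258 of them higher. Because TPM keep no depth, no limit was computed for a value of 0. The alternatives for the ratios with Hk1 and G6pc2 were not run, as those ratios could not be formed.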
